A study of Saccharomyces cerevisiae with 9 samples.

Results

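The genes described here carried a high nucleosome signal over the transcription end site (TES) and a low signal just upstream of it. They were chosen from total histone MNase-Seq data of wild type (WT) Saccharomyces cerevisiae cells, grown to the same optical density as the rest of the series. For each gene the mean signal from -30 to 80 nt around the TES was divided by the mean signal from -140 to -70 nt, and the 10% of genes with the highest ratio were kept. Of 2426 protein-coding genes in the table, 3 with an outlying signal were left out by name, 19 had a mean signal under 3 RPM (reads over a base, scaled to the number of mapped reads), and 240 of the 2404 remaining genes were kept. These 240 genes are called members, and the 2164 remaining genes are called the other genes. The series holds 9 samples, of which this 1 WT MNase-Seq sample was used, while the 8 ChIP-exo samples (Rpb3-FLAG or Nrd1-TAP, from WT or RTR1 deletion cells) were not analysed here. With 1 sample there is no replicate error and no control without histones, so that no test was made and every difference between sets of genes is a description of this library. The same signal that chose the members is described below at the TES, as a description of what was chosen.

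In MNase-Seq, DNA outside nucleosomes is cut away by micrococcal nuclease, and what the histones protect is read. A peak marks a position that many cells protect, and a trough marks DNA that is open or cut. At the start of a yeast gene a nucleosome-depleted region precedes the transcription start site (TSS), and the first nucleosome of the gene, called +1, lies just inside it. Toward the end of the gene the regular array fades, and the stretch around the TES, where the 3'-end of the RNA is cleaved and polyadenylated, is often depleted as well. TATATA is a form of the efficiency element that helps to place the 3'-end in yeast, and long runs of A or T are stiff DNA that disfavors nucleosomes.

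The sequences downstream of the stop codon are shown for members with high ratios, since the trough that the rule asks for lies in the last part of the transcript. They come from the R64 reference (the assembly of sacCer3), in which 2425 of the 2426 genes were found, all on the strand of the table. The transcript ends used by the authors are not known here, so that the bases are placed by the stop codon and not by the TES. Runs of at least 10 A or 10 T within 200 nt after the stop codon are printed in capitals within 30 nt for 4 members from among the 10 with the highest ratio and only unique sequence nearby, as examples and not as a count of those with a run, read 5' to 3' on the strand of the gene. PUF3 has the longest run, 30 T from position 37 after the stop codon, and POL2 has 25 A from position 44.
PUF3, chrXII:122009-122038, - strand: TTTTTTTTTTTTTTTTTTTTTTTTTTTTTT
POL2, chrXIV:154922-154951, + strand: tgAAAAAAAAAAAAAAAAAAAAAAAAAggt
UBP14, chrII:353477-353506, - strand: tgttttttcTTTTTTTTTTTTgctgctgtt
HEM1, chrIV:929176-929205, + strand: tttttttcaTTTTTTTTTTTTattcttatt

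The motif TATATA reads the same on both strands, and the first copy in each of the 4 of these 10 members that hold it within 200 nt is in capitals. In PXP1 and UBP14 it opens a longer repeat of TA, while in POL2 and INP53 it stands alone. CRP1, MTG2, PUF3, NCE102, HEM1 and SPT3 have no copy in this window.
PXP1, chrV:118587-118616, - strand: taaatatgcatgTATATAtatatatatata
UBP14, chrII:353617-353646, - strand: cacacacacacaTATATAtatatatatata
POL2, chrXIV:154881-154910, + strand: gtaagcagTATATAacgcgaggttcaatgg
INP53, chrXV:528709-528738, + strand: tagataaatattTATATAaatattcagtga

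A second kind of sequence matters because it bears on where reads can be placed. HXT7, SSB1 and SSB2 are members whose last coding bases are found again in a paralog (HXT6 for HXT7, while SSB1 and SSB2 are each other's). A read that lies wholly in bases that are the same in both copies fits either gene. How such reads were placed is not given in the sources used here. The last 30 coding bases of each pair are given with the stop codon in capitals. They are the same in 30 of 30 bases for both pairs, and the last 300 coding bases are the same at 297 positions in the HXT pair and at 288 in the SSB pair.
HXT7, chrIV:1154216-1154245, - strand: ttgtacaagagaatgttcagcaccaaaTAA
HXT6, chrIV:1159608-1159637, - strand: ttgtacaagagaatgttcagcaccaaaTAA
SSB1, chrIV:45877-45906, + strand: gttgtcaccaaggccatgtcttctcgtTAA
SSB2, chrXIV:253871-253900, + strand: gttgtcaccaaggccatgtcttctcgtTAA

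The library is deep. Edge values of the tables are whole multiples of 0.0300 RPM, which is the worth of 1 read and stands for 33313664 reads. The median member then has 269 reads over a base around the TES and 124 upstream of it and, as reads overlap many bases, these are not independent counts. The level that 3 reads over a base give is 0.0901 RPM. At the TSS, where the rule used nothing, the depletion was below the +1 level in 91.4% of the 2404 genes.

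The ratio of the members ran from 1.62 up, with a median of 2.05 and quartiles of 1.76 and 2.66, against a median of 0.813 in the other genes. A ratio above 1 was found in 38.4% of all 2404 genes and, by the rule, in every member. Of the 240 members, 111 had a ratio under 2 and 20 reached 4 or more. The 3 members just inside the threshold were TPS1, which makes trehalose phosphate, with 1.617, ZDS1 with 1.617 and NHX1, a sodium-proton exchanger, with 1.616. The 3 genes just outside it were YNL095C with 1.615, ULP1, a SUMO protease, with 1.615, and ATG4, a protease of autophagy, with 1.613. The threshold thus cuts through a continuous range. A choice of 5 genes discussed in the paper was looked up, which leaves out others that it mentions. None of these 5 was a member. RRP6, a nuclease of the nuclear exosome, came closest with a ratio of 1.51 and a peak of 12 RPM, and RTR1 and PHO84 had 0.996 and 0.869. NRD1 and YKL151C, with ratios of 0.280 and 0.287, had the usual depletion over the TES.

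The 10 highest ratios were those of PHO12, CRP1, INP53, UBP14, HXT7, RPL8A, MTG2, POL2, PUF3 and PXP1, and their traces show that a high ratio arose in more than a single way. In CRP1 (YHR146W, chrVIII:390300-391697), which codes for a protein that binds cruciform DNA, the signal was 0.513 RPM at -100 nt, 5.01 at the TES and 12.6 at 100 nt, and the ratio was 17.5. In INP53 (chrXV:525278-528601), a phosphoinositide phosphatase, the signal fell from 6.71 RPM at -200 nt to 0.488 at -100 nt and rose to 6.39 at the TES and to a peak of 14.5 at 65.2 nt, with a ratio of 8.61. MTG2 (chrVIII:440377-441933), a putative GTPase, went from 8.18 RPM at -200 nt to 1.80 at -100 nt and to a peak of 14.2 at 39.7 nt. INP53 and MTG2 thus have a trough between 2 higher levels, whereas CRP1 was low from -200 to -50 nt.

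POL2 (chrXIV:148212-154880), the catalytic subunit of DNA polymerase epsilon, had 1.32 RPM at -100 nt, 8.52 at the TES and a peak of 11.5 at 14.6 nt. In PUF3 (chrXII:122075-124714), an mRNA-binding protein, the lowest bin was 0.330 RPM at -120 nt and the peak 9.91 RPM at 54.2 nt. PXP1 (chrV:118617-120299), a peroxisomal protein related to decarboxylases, fell under the 3-read level at -80 nt and had 8.59 RPM at the TES and a peak of 13.4 at 55 nt. The levels before these troughs were higher again, with 5.16 RPM at -200 nt in POL2, 7.92 in PUF3 and 6.18 in PXP1.

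**Figure D1:**
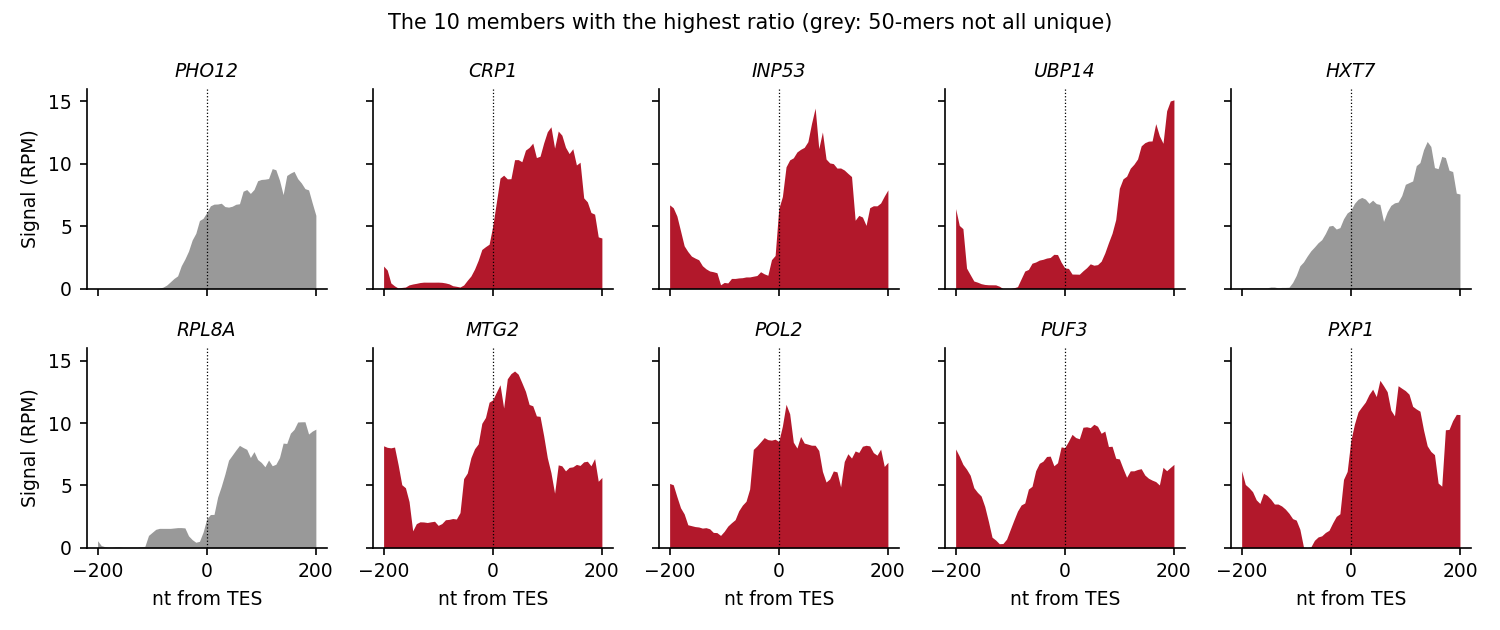
Each panel plots the MNase-Seq signal of a single gene in RPM against the distance from the TES in nt (dotted line), for the 10 members with the highest ratio in order. INP53, MTG2, POL2, PUF3 and PXP1 show a trough near -100 nt and a peak past the TES, whereas PHO12, HXT7 and RPL8A (grey, sequence not unique) lie under 1 RPM at -200 and -150 nt and UBP14 has no peak between -30 and 80 nt.

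The remaining 4 high ratios came with very low signal upstream. PHO12 (chrVIII:552099-553502), an acid phosphatase near a chromosome end, had 17 of 61 bins at 0 and 0 RPM at -200, -150 and -100 nt, then 6.09 at the TES and 9.16 at 150 nt. Its mean upstream of the TES was under the 3-read level, so that its ratio can only be bounded. Against that level, the signal over the TES was at least 71.3-fold higher than upstream. The bound takes account of read depth alone. PHO12 also had 0 RPM before its TSS and at +1, so that the lack of signal was not confined to the stretch before the TES. Whether reads could be placed there was not tested. HXT7, a glucose transporter, had 0.0600 RPM at -200 nt, 1.05 at -100 nt and 6.27 at the TES, and the signal went on to 10.5 at 150 nt. RPL8A, a protein of the large ribosomal subunit, had 0.0600 RPM at -150 nt, 2.32 at the TES and 8.78 at 150 nt. Of the 50-mers within 500 nt of the stop codon, 64.9% were unique in PHO12, 61.3% in HXT7 and 99.6% in RPL8A. The signal over the body of the gene was 0.00581 RPM in PHO12, 0 in HXT7 and 0.858 in RPL8A, beside a median of 5.55 in members. UBP14, a ubiquitin-specific protease, held 1.65 RPM at the TES and 8.04 at 100 nt, and its ratio of 6.39 came from a level of 0.316 RPM upstream. It has only unique 50-mers, and neither it nor PHO12 passed the call of a peak that is given for all members with the mean traces.

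On average over the 240 members, the signal fell from 5.73 RPM at -200 nt to a minimum of 3.46 RPM at -97.2 nt, rose to 8.23 at the TES and to a peak of 9.04 RPM at 35.1 nt, and fell to 6.42 RPM at 128 nt. The peak was 2.61 times the minimum upstream. The other genes had the reverse order, with a peak of 8.01 RPM at -101 nt and a minimum of 5.80 at 61.7 nt. Downstream of the bins of the rule, both means came together again, with 7.45 RPM in members and 7.58 in the other genes at 200 nt. Upstream of these bins the members were lower, with 5.73 RPM beside 6.58 at -200 nt and 4.91 beside 7.12 at -153 nt. Members with only unique 50-mers had 6.52 RPM at -200 nt, near the other genes, and 5.43 at -153 nt. Past the TES, from 100 to 200 nt, the median was 6.67 RPM in members (quartiles 5.11 and 8.47) and 7.29 in the other genes (quartiles 5.53 and 8.73), ranges that overlap widely.

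**Figure D2:**
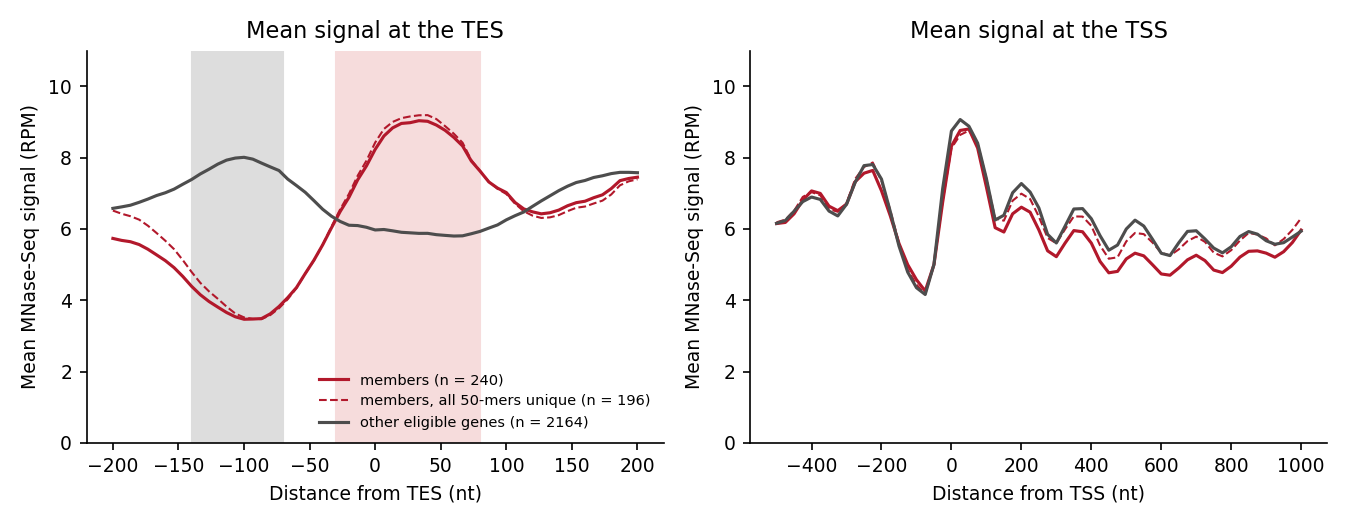
The mean MNase-Seq signal in RPM is plotted against the distance in nt from the TES (left) and from the TSS (right) for 240 members (red), the 196 members with unique sequence (dashed) and 2164 other genes (grey), with the windows of the ratio shaded in grey and pink. At the TES the members reach 9.04 RPM at 35.1 nt where the other genes have about their minimum, and at the TSS the depletion and the +1 peak of both sets lie close together.

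A peak over the TES was called where the highest bin from -30 to 80 nt was at least 1.2 times the lowest bin within 120 nt on each side. This held for 223 of 240 members (92.9%) and for 76.5% of all 2404 genes, and these bins are in part those of the rule. At 1.5 times, 193 members (80.4%) and 53.9% of all genes had a peak. The name "nucleosome over the TES" does not describe all members. In 17 there was no such peak. The highest bin lay at the border of the window in 28 members (11.7%), beside 43.3% of the other genes. As 74.7% of the other genes also passed the call at 1.2 times, passing it does not by itself bear out the name. In 196 members (81.7%) the trough upstream was the deeper of both, with medians of 2.46 RPM upstream and 4.46 RPM downstream of the peak. The trough upstream draws in part on the bins that the rule holds low, so that this order is set in part by the rule.

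The highest bin of the members lay at a median of 31.8 nt past the TES, with quartiles of 5.90 and 58.2 nt. It was upstream of the TES in 41 members, from 0 to 40 nt in 107, and at 40 nt or further in 92. The median height was 10.6 RPM (quartiles 8.80 and 12.5), beside 8.48 in the same window of the other genes. The minimum downstream was sought only up to 120 nt past the peak of each class, so that its position is set in part by the search. Where the peak was upstream of the TES, the mean trace had its peak of 10.4 RPM at -8.74 nt and its next minimum of 5.43 at 110 nt. In the class from 0 to 40 nt these lay at 21.1 nt with 10.1 RPM and at 116 nt with 5.52 RPM. In the class past 40 nt they lay at 65.4 nt with 9.98 RPM and at 168 nt with 7.55 RPM. This last minimum was hardly below the next high of 7.58 RPM. The trough upstream stayed between -103 and -85.6 nt in all 3 classes, where the rule's own window holds it.

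**Figure D3:**
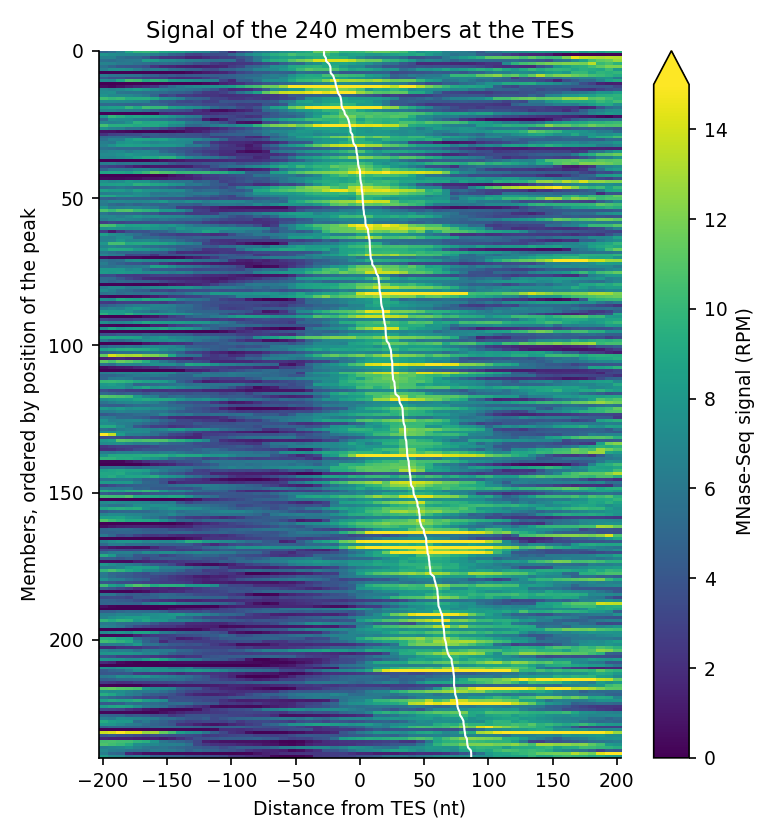
Each row is the signal of a member in RPM (color, cut at 15 RPM) against the distance from the TES in nt, with the 240 members ordered by the position of their peak (white line). The line runs from before the TES to past 80 nt, with 41 members upstream of the TES and 92 at 40 nt or further, and the dark stretch to its left is the trough that the rule asks for.

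The highest peaks over the TES belonged to RPN5, HTA1 and NSA2. RPN5, a subunit of the proteasome lid, had 7.95 RPM at -100 nt, 13.8 at the TES and a peak of 28.4 RPM at 15.9 nt. HTA1, a gene of histone H2A, had 6.10 RPM at -100 nt, 3.07 at -50 nt and a peak of 28.1 at 72.7 nt, and 98.2% of its 50-mers were unique. NSA2, a factor of large ribosomal subunit assembly, rose from 1.47 RPM at -200 nt to 26.5 at 52.3 nt. Their ratios were 2.84, 2.48 and 3.34, and none was among the 10 highest, so that height and ratio name different genes.

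To ask whether the peak could be that of the next gene, the trace of each gene at its TES was laid over the trace of its downstream neighbour at that gene's TSS, and the distance with the smallest difference was taken as an estimate, in steps of 5 nt. The neighbour ran in the same direction (tandem) in 159 of 239 members with a known position and toward the member (convergent) in 80 (33.5%), beside 32.2% convergent in the other genes. A distance was found for 71 members and 603 other genes with a tandem neighbour, with a median difference between both traces of 3.42% and 3.24%. The closest fits among members were those of YNL046W with LAP2 at 10 nt (1.99%), BAT1, a branched-chain aminotransferase of mitochondria, with CRG1 at 535 nt (2.00%), LDB7, a subunit of the RSC remodeller, with SLA1 at 35 nt (2.32%) and SSB2 with YNL208W at 375 nt (2.37%).

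Where the next TSS lay under 50 nt past the TES, 15 of 26 genes were members. From 50 nt to under 150 nt it was 4 of 184 genes (2.17%), and at 150 nt or more 52 of 464 (11.2%), beside 9.98% of all 2404 genes. In the 15 members with the nearest TSS the peak lay from -11.9 to 61.7 nt of the TSS of the next gene, with a median of 19.3 nt. The +1 peak of the 2164 other genes was at 28.3 nt and their depletion at -82.9 nt on the same scale. As the peak was sought from -30 to 80 nt of the TES, and the distance was fitted on the same trace, a place near a TSS this close is set by the method and is a description. The 11 other genes at this distance had their highest bin at a similar place, a median of 20.9 nt from the next TSS, with a median ratio of 1.01. The 15 members include MTG2 followed by DBP8 at 0 nt, with the peak at 39.7 nt of the next TSS, NVJ1 followed by UTP9 at 5 nt, with 61.7 nt, VPS16, a subunit of vacuolar tethering complexes, followed by NOP4 at 10 nt, with 55.9 nt, and INP53 followed by TFC7 at 35 nt, with 30.2 nt. TAF9, a subunit of TFIID and SAGA, followed by BCH1 at 20 nt, had its peak at -11.9 nt. All 15 members had only unique 50-mers.

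**Figure D4:**
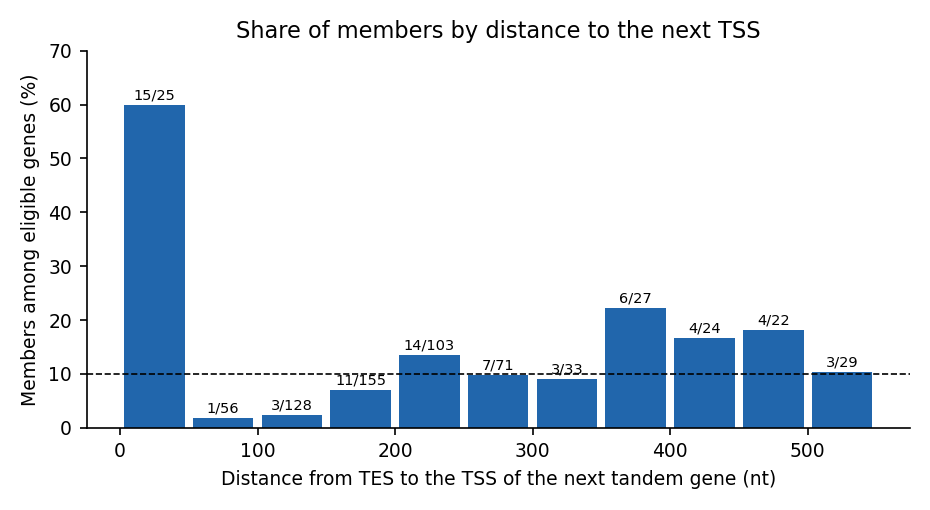
The bars give the percent of eligible genes that are members, by the distance in nt from the TES to the TSS of the next tandem gene, with members and genes written above each bar and the share over all genes dashed. The share is 60% in the 25 genes at 0 to 49 nt, 1.79% and 2.34% in the next 2 classes, and between 7.10% and 22.2% from 150 nt on.

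Where the next TSS was at 150 nt or more, the window of the peak did not reach it. From 150 nt to under 300 nt (32 members), the peak lay at a median of -200 nt from the next TSS (quartiles -226 and -180) and the trough downstream of it at -71.7 nt (quartiles -87.9 and -61.3), near the depletion of the neighbour. The other genes at this distance had their highest bin of the same window at -203 nt (quartiles -226 and -173), where 297 genes were read, so that both sets overlap in this position. At 300 nt or more (20 members) the peak was at a median of -383 nt, and in 115 other genes at -401 nt. The gap from the stop codon to the next coding sequence had a median of 466 nt (quartiles 354.5 and 653) in tandem members and 398 nt (quartiles 286 and 589) in tandem other genes, and of 362 and 355 nt in convergent ones.

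In convergent genes with nearby ends the windows around both TES cover some of the same bases, and 3 convergent pairs of members were found. PSP2 and PPZ1, a protein phosphatase, had ratios of 4.03 and 2.79 with their TES 235 nt apart, a lowest bin upstream of 0.723 RPM at -113 nt in PSP2 and of 0 RPM at -73.3 nt in PPZ1, and 8.06 and 5.82 RPM at the TES. VPS41, a vesicle tethering subunit, and PDC2, a regulator of pyruvate decarboxylase genes, had 2.55 and 2.03 with their TES 110 nt apart and peaks of 7.11 and 7.21 RPM. For CRP1 and MRPL6, a mitochondrial ribosomal protein, with ratios of 17.5 and 2.22, no distance could be fitted, as the best difference was 16%. Of 49 members with an eligible convergent partner, 6 (12.2%) had a partner that was a member, beside 9.41% of the other genes. Over the 39 convergent members with a distance, the peak lay a median of 55.4 nt past the TES of the partner and in the same window of the partner in 21 (53.8%), and the other genes had 51.2%.

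Tandem pairs of members were APE1 and GFA1, THP2 and MTG2, and TUB1 and ALO1. THP2, a subunit of the THO complex, and MTG2 stand next to CDC23, a subunit of the anaphase-promoting complex, and these 3 form the longest run of eligible genes in a row on chromosome VIII that are all members. The ratios were 2.01 in CDC23, 2.99 in THP2 and 5.74 in MTG2, and the next TSS lay 15, 25 and 0 nt past their TES.

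Members made up a larger share of the genes of chromosome VIII than of any other chromosome. Of its 98 eligible genes 26 were members (26.5%), beside 214 of 2306 genes (9.28%) on the other 15 chromosomes, where the share ran from 5.80% on chromosome X to 13.2% on chromosome IV. They were spread from 35255 to 553502 and over both strands, 12 of 53 genes on the + strand and 14 of 45 on the - strand. Of genes with only unique 50-mers, 20 of 84 on chromosome VIII were members (23.8%). The median ratio of its genes was 0.969, above the range of 0.778 to 0.937 of the other chromosomes. Its members had a deeper minimum, 2.30 RPM at -96.4 nt, and a peak of 8.68 RPM at 39.2 nt, beside 3.60 and 9.09 RPM in the members elsewhere, while its 72 other genes had a peak of 8.20 RPM at -114 nt, near that of the other genes as a whole. With the mean over all bins in place of the upstream window, the share on chromosome VIII was 15.3%, beside 9.76% elsewhere. CRP1, MTG2 and PHO12 are named above, and GAR1, a protein of the box H/ACA particles, with a ratio of 4.01, and SSZ1, a chaperone at the ribosome, with 3.60, are among the others, GAR1 being chosen after its value was seen. Why this chromosome stands apart was not tested.

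**Figure D5:**
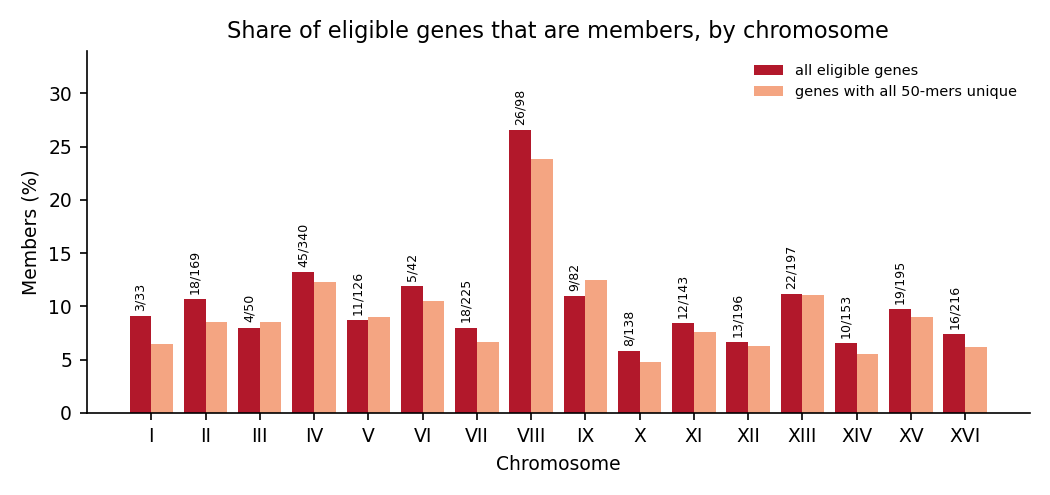
The bars give the percent of eligible genes of each chromosome that are members, for all eligible genes (red, with counts) and for those with only unique 50-mers (orange). Chromosome VIII reaches 26.5% and 23.8%, and no other chromosome exceeds 13.2%.

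Sequence that occurs more than once was more frequent near members. In 43 of 239 members (18.0%) some 50-mers within 500 nt of the stop codon occurred again in the genome, beside 8.92% of the other genes, and 16 members (6.67%) had bins at 0 RPM, beside 1.34%. Of the 43 members, 24 were genes of cytosolic ribosomal proteins, which in yeast often come as pairs of near-identical copies. Of 107 ribosomal protein genes 30 were members (28%), and of the 42 with only unique 50-mers 6 were (14.3%), beside 9.04% of all genes with unique 50-mers. In the 30 members the mean signal was 1.45 RPM at -200 nt and 1.09 RPM at its minimum at -181 nt, and it peaked at 8.37 RPM at 33.2 nt. The 77 ribosomal protein genes that were not members also started low, with 2.77 RPM at -200 nt. RPS4A had 1.48 RPM upstream and 5.78 over the TES (ratio 3.90) and RPL23B 2.03 and 7.64 (3.77), with 77.6% and 94.8% unique 50-mers. The part of repeated sequence in these ratios was not tested. Without ribosomal protein genes, the 210 remaining members had a minimum of 3.38 RPM at -89.0 nt and a peak of 9.15 RPM at 36.9 nt, much like the whole set.

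Other gene lists held few members, and their shares are set beside 9.98% of all 2404 genes. Of 11 genes of glycolysis 3 were members, TDH3, the main glyceraldehyde-3-phosphate dehydrogenase, with 2.48 RPM upstream and 9.92 over the TES, CDC19, pyruvate kinase, with 4.05 and 8.10, and TPI1, triose phosphate isomerase, with 3.12 and 5.55. TDH3 had 88.7% unique 50-mers and 0.150 RPM at -200 nt. Of 21 heat shock chaperones 4 were members, SSZ1, SSB1, SSB2 and YDJ1, with ratios of 3.60, 3.31, 2.12 and 1.64. SSB1 and SSB2 had 0.240 and 0.150 RPM at -200 nt and 5.74 and 5.54 at the TES. Of 7 genes of core histones and variants 2 were members, HTA1 and HTB1, which stand side by side and are transcribed away from each other. HTB1, a gene of histone H2B, had 2.36 RPM at -100 nt, 8.05 at the TES and 14.2 at 150 nt.

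Of 16 genes of the respiratory chain and ATP synthase 3 were members, ATP1 with a ratio of 2.91, COX13 with 2.03 and COX5B with 1.79. Of 21 genes of histone chaperones and remodellers 2 were, the RSC subunits RSC2 with 2.69 and RSC6 with 2.02. Of 11 aminoacyl-tRNA synthetases 2 were, GUS1 with 2.31 and DED81 with 2.05, and of 21 nuclear pore genes 2 were, SEH1 with 2.13 and a peak of 19.0 RPM at -13.7 nt, and NUP1 with 1.77. Of 12 phosphate-regulated genes 2 were, PHO12 and PHO80, a cyclin of phosphate signaling, with 2.44. A single member each came from the 26S proteasome (RPN5, of 19 genes), the subunits of RNA polymerase II (RPB10, of 4), the vacuolar ATPase (VMA11, of 9) and the mitochondrial ribosome (MRPL6, of 25). No member was found among 10 cleavage and polyadenylation factors, 13 genes of the Nrd1 pathway and nuclear exosome and 10 genes of ergosterol synthesis. These lists are short, and a count of 0 does not set them apart.

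The sequence downstream of the stop codon differed in the members by the motifs shown above. TATATA was found within 200 nt in 143 of 239 members (59.8%), 48.2% of the other genes and 49.4% of all genes. With 100 nt the shares were 42.3% and 34.9%, and with 400 nt 74.1% and 62%. The first copy lay at a median of position 70 in members and 58 in the other genes. A run of at least 6 A or 6 T was about as frequent within 200 nt (70.7% and 68.1%, with 68.3% of all genes), while within 100 nt it was found in 51.5% and 40.9%. Runs of at least 10, a length chosen after the runs of PUF3 and POL2 were seen, were present within 100 nt in 34 members (14.2%), 6.75% of the other genes and 7.49% of all genes. The difference was smaller in longer windows, with 19.2% and 15.8% within 200 nt and 25.5% and 25% within 400 nt. Within 100 nt they reached 26.7% in the 60 members with the highest ratio, and 10% in the 60 with the lowest. Over all 2403 genes with a known position the direction was the opposite. There the longest run within 200 nt had Pearson's r of -0.105 with the ratio on the log2 scale. The GC content over 200 nt had a median of 30% (quartiles 27.3 and 33) in members and 31% (28 and 34.5) in the other genes.

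The differences in TATATA and in runs depended on the window upstream of the TES. With the ratio taken against the mean over all 61 bins, 240 genes were again kept, of which 128 were members, and TATATA was present in 49.6% of them and 49.3% of the others. Runs of at least 6 within 200 nt were then less frequent in the kept genes, 60.8% beside 69.2%, and runs of at least 10 within 100 nt were at 11.3% and 7.07%. UBP14 held rank 2227 of the genes under that ratio, HXT7 309 and RPL8A 483. MTG2, CRP1 and INP53 held ranks 13, 51 and 39, within the 240 kept.

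The TSS, which the rule did not use, looked much the same in members and other genes. The depletion before the TSS had a median of 4.56 RPM in members (quartiles 3.45 and 5.82) and 4.33 in the other genes (3.20 and 5.71), and the +1 level was 8.58 (7.22 and 9.90) and 8.79 RPM (7.49 and 10.1). The depletion was below the +1 level in 208 members (86.7%), beside 91.4% of all genes, and the 32 members without it had a median ratio of 2.28. From 150 to 900 nt into the gene the median was 5.55 RPM in members (4.77 and 6.43) and 6.03 in the other genes (5.23 and 6.81). Among longer genes, with 1500 nt or more of coding sequence, whose window ends before the TES, the values were 5.49 RPM in 89 members and 6.11 in 1063 other genes. In members with only unique 50-mers the body was at 5.76 RPM, beside 6.07. The ranges between the quartiles overlap in each of these measures. The 30 ribosomal protein members had a body signal of 3.85 RPM.

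Members had shorter coding sequences, with a median of 1182 nt (quartiles 769.5 and 1842) beside 1471.5 nt (953 and 2191). The difference was smaller without ribosomal protein genes (1338 and 1518 nt) and in genes with only unique 50-mers (1296 and 1503 nt). Their mean signal over the 400 nt around the TES was 6.10 RPM (5.43 and 7.21) beside 6.80 RPM (5.94 and 7.67). Where a coding sequence of up to 1000 nt let both tables of a gene overlap, the transcript exceeded the coding sequence by a median of 165 nt in 74 members (quartiles 135 and 224) and 150 nt in 449 other genes (105 and 195). A tRNA gene lay within 500 nt past the stop codon in 2.09% of members and 3.42% of other genes, a replication origin in 6.28% and 7.67%, and a long terminal repeat in 2.93% and 2.77%. The distance to the centromere had medians of 232 and 214 kb, and that to the chromosome end 187 and 221 kb, with wide overlap. Across the 2403 genes with a known position, the ratio on the log2 scale had Pearson's r of -0.147 with the share of unique 50-mers, -0.105 with the longest run of A or T, 0.0888 with the gap and -0.0787 with coding length, where all points come from 1 library.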

How the data were processed

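Total histone MNase-Seq of 1 WT sample was used. Per the labels and the study's methods, chromatin was digested with micrococcal nuclease and sequenced on a SOLiD instrument, and reads were aligned to sacCer3 with bfast 0.7.0a. The authors deposited coverage as a signal in RPM, computed with ngs.plot over 61 bins around each TES (200 nt on each side) and TSS (500 nt before to 1000 nt after). Per the study's methods, average plots drew on 2 biological replicates per genotype, and whether the table of this sample pools them is not clear. The ngs.plot version, read extension and transcript annotation are not given in the sources used here. Since coverage was smoothed into bins, narrow troughs may be shallower than in the reads.

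Ratios, positions (a parabola through the highest bin), counts and medians were computed with Python 3.11.15, numpy 2.4.6, scipy 1.17.1 and pandas 2.3.3, and the figures with matplotlib 3.10.9. The steps were tested on simulated data. Genes were placed in R64 by systematic name, and a 50-mer was called unique where it occurs once in the genome, either strand, within 500 nt of the stop codon. Traces of neighbours were compared over at least 150 nt, and a distance was kept where the median difference was under 10%. With 1 sample no test was run. The depth is 33313664 reads, 1 read being 0.0300 RPM. YDR133C, a member, was not placed in R64 and has no sequence values.

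The named genes are the 10 highest ratios, the 3 members inside and the 3 genes outside the threshold. Up to 4 members of each of 16 gene lists are also named, as are convergent pairs of members and the 3 highest peaks. The rest are a choice of the protein-coding genes named by the study and the 4 closest tandem matches. The genes next to a TSS under 50 nt away, the tandem pairs and the next unique-sequence members were added after their values were seen. Of what these rules name, 1 gene and 1 sequence are not reported here. The members and lists were chosen with earlier results of these data known. Alternatives were other shares of genes, another minimum signal, another denominator, another peak fold, other sequence lengths, and members with unique sequence, outside chromosome VIII or without ribosomal protein genes, the last 3 chosen after seeing the data.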

Additional observations from a re-analysis of the deposited data

How the results depend on the processing

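Of 213 alternative values, 170 stayed within the limits set, 36 moved and 7 reversed, and of 64 alternative ranks of the 10 highest members 61 left the gene among those kept. The cause was not tested where none is given.

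With the top 5% of genes, 120 were kept, the TSS depletion reversed (4.34 against 4.38 RPM), the gene body was at 5.27 RPM, the share under 50 nt from the next TSS at 30.8%, runs of at least 10 within 100 nt at 19.3% and the mean TES signal at 5.86 RPM. With the top 20%, 481 were kept, the peak lay at 21.5 nt, the minimum downstream at 120.1 nt, 16 convergent pairs were found, TATATA was at 51.9%, runs of at least 6 reversed (67.5% against 68.5%), the mean TES signal was 6.51 RPM and 53.3% of ribosomal protein genes were kept.

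With the mean over all bins as denominator, the peak call was at 99.2%, the minima at -84.9 and 153 nt, the +1 level reversed (8.80 against 8.78 RPM), convergent neighbours reversed (25.8% against 33.1%), the share under 50 nt was 34.6%, GC 31%, TATATA 49.6%, runs of at least 6 reversed (60.8% against 69.2%), chromosome VIII was at 15.3% and the mean TES signal at 6.61 RPM. UBP14, HXT7 and RPL8A then held ranks 2227, 309 and 483, outside the genes kept, and the ranks of the other 7 ran from 13 (MTG2) to 104 (PUF3).

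Among genes with unique 50-mers selected anew, the peak lay at 26 nt, convergent neighbours reversed (30.4% against 30.5%), the mean TES signal was 6.31 RPM and ribosomal protein genes were at 19.0%. Members with unique 50-mers had the minimum at -89.6 nt and 14.3% of ribosomal protein genes. Without ribosomal protein genes the minimum was at -89.0 nt and convergent neighbours reversed (31.1% against 31.6%). The median trace peaked at 28.2 nt, a fold of 1.5 gave a peak call of 80.4%, and a minimum of 5 RPM gave a mean TES signal of 6.37 RPM. Over 100 nt and 400 nt, GC was 29% and 32.8%, TATATA 42.3% and 74.1% and runs of at least 6 were at 51.5% and 86.2%, longer windows holding more motifs by construction. Runs of at least 10 within 200 nt were at 19.2%.

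No paired analysis was possible because a single sample was used. Values without a replicate cannot show how far another WT culture would differ, and levels under 0.0901 RPM rest on fewer than 3 reads over a base. How reads from repeated sequence were placed is not given in the sources used here. Positions at the TES are known to 1 bin of 6.67 nt, while those at or against a TSS rest on bins 25 nt apart.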
